A study of Mus musculus with 9 samples.

Results

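The simple epithelial keratins and ductal marker genes Krt7, Krt8, Krt18, Krt19, Krt20, Cftr, Muc1, Msln and Prom1 were read in tumors and normal islets of mice. They were chosen by name, as keratins of single-layered epithelia and as genes used to mark pancreatic duct cells, and make up 9 of the 54347 genes listed. Of these, 7 reached at least 1 CPM (the count relative to the total of the library, here before scaling) in at least 3 of the 9 libraries. They were tested with 15532 genes in all. Krt20 and Cftr did not reach that level and were tested only where every gene with a count was. All levels below are CPM after TMM scaling by edgeR.

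RNA came from INS-p25OE tumors and from normal islets, with functional tumors as M1, M2 and M3 (titled Tumor Inulin), islets as NI1, NI2 and NI3, and M4, M5 and M6 as the non-functional tumors, 3 of each. The INS-p25OE mice were bi-transgenic, from the tetOp-p25GFP and Ins2-rtTA strains on a C57BL/6 background, and received doxycycline in drinking water from weaning at 3 to 4 weeks, which switched on p25, the activator fragment that the Cdk5r1 gene encodes, in cells that use the Ins2 promoter. The islets were labelled C57BL/6, and the controls of the study were littermates without transgenes housed with them. M2 came from a female and all other samples from males. The age at collection, and whether a sample pooled several animals, are not given in the sources used here.

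Keratins are the intermediate filament proteins of epithelial cells, and a filament needs a type I partner (Krt18, Krt19 or Krt20) and a type II partner (Krt7 or Krt8). Islet endocrine cells of rodents carry mainly the Krt8 and Krt18 pair, whereas duct cells add Krt7 and Krt19, and KRT19 in human pancreatic neuroendocrine tumors is used as a marker of worse outcome. Cftr is the chloride and bicarbonate channel of the duct surface, Muc1 a membrane mucin, Msln (mesothelin) a surface glycoprotein of mesothelium that several carcinomas also carry, and Prom1 (CD133) a pentaspan protein of membrane protrusions that has served as a progenitor marker.

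The library labelled NI1 stood apart from the other islets. Cdk5r1, whose fragment is the transgene product, was at 280 CPM there and at 149 to 401 CPM in the tumors, whereas NI2 and NI3 held 18.4 and 12.5 CPM. Across genes, NI1 and the tumor M6 correlated with Pearson's r of 0.9883 on log2(CPM + 1), above the 0.8245 to 0.9752 of the other 35 pairs of libraries. The label of NI1 is kept, and the comparison of each tested member with the islets is given with and without it. Total counts ran from 36468280 to 63637175 a library, so that the limit of detection used here, 3 counts, lay at 0.0425 to 0.119 CPM. Mitochondrial genes held 32.12% of the counts of M4 and 1.76% to 8.41% of those of the other libraries.

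The keratin genes lie in the 2 keratin clusters of the mouse. On GRCm38 the type II genes Krt7 (chr15:101411043-101430313, plus strand) and Krt8 (chr15:101996698-102004482, minus strand) lie on the same chromosome as the type I gene Krt18 (chr15:102028180-102032027, plus strand). Krt8 and Krt18 point away from each other across 23697 bases with no other protein-coding gene annotated between them. The type I genes Krt19 (chr11:100140810-100148665) and Krt20 (chr11:99428403-99438150) are on the minus strand of chromosome 11. The other members are scattered, with Cftr at chr6:18170687-18322768, Muc1 at chr3:89229057-89233381, Msln at chr17:25748613-25754378 and Prom1 at chr5:43993620-44102032. The RefSeq promoter table for GRCm38 held 7 of the members, all but Krt19 and Msln. The stretches before the starts of Krt8, Krt18 and Krt20 are shown to set the pair found in every library beside the keratin that was close to 0. They are read 5′ to 3′ on the strand of the gene and cover chr15:102004483-102004592, chr15:102028030-102028179 and chr11:99438154-99438303, hold no annotated exon, and end 140, 36 and 0 bases before the RefSeq start. Capitals mark the letters TATAAA.
Krt8: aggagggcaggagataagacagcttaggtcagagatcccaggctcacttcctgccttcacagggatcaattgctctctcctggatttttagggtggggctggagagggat
Krt18: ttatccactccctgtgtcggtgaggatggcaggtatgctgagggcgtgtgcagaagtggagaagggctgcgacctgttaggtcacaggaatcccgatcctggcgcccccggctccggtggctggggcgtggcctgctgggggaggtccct
Krt20: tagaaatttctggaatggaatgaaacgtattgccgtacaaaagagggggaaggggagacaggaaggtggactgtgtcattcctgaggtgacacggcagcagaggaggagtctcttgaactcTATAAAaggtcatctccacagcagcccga

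Within 250 bases before the RefSeq start, on either strand, the Krt20 promoter held TATAAA 29 bases before the start, and that of Muc1 held it 31 bases before. The letters occur in 12.4% of the 32851 promoters of the same table. Those of Krt8 and Krt18 lacked them. The GC box letters GGGCGG, present in 32.7% of all promoters, occurred 6 times in the window of Cftr, 4 times in that of Krt7, 2 times in that of Muc1 and 1 time in 1 of the 2 windows of Prom1, and were not found in those of Krt8, Krt18 and Krt20. The AP-1 letters TGANTCA, present in 6.75%, occurred among the members in both windows of Prom1 alone. These are matches of letters and were not tested for binding.

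The first question was whether the tumors differed from the islets in these genes. None of the 7 tested members passed an adjusted p of 0.05 in the quasi-likelihood test of edgeR with Benjamini-Hochberg adjustment, in a comparison that called 0.258% of all genes (40 of 15532, all of them lower in tumors). Without the library labelled NI1 again 0 of 7 passed, where 8.34% of all genes did. At an unadjusted p under 0.05, which 19.8% of all genes reached, the count was 1 of 7, and the gene was Krt19. DESeq2, the tool of the study, called 1 of the 6 members to which it gave a p-value, again Krt19, while calling 8.13% of all genes, and limma-voom called 0. No member was separated from the islets as labelled in either direction, where 4.5% of all genes had every tumor above every islet library and 3.17% had every tumor below. In bulk tissue, fewer cells of a type and less RNA per cell cannot be told apart. Sample sizes in the study are said to be biological replicates, although the labels name no animals.

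**Figure D1:**
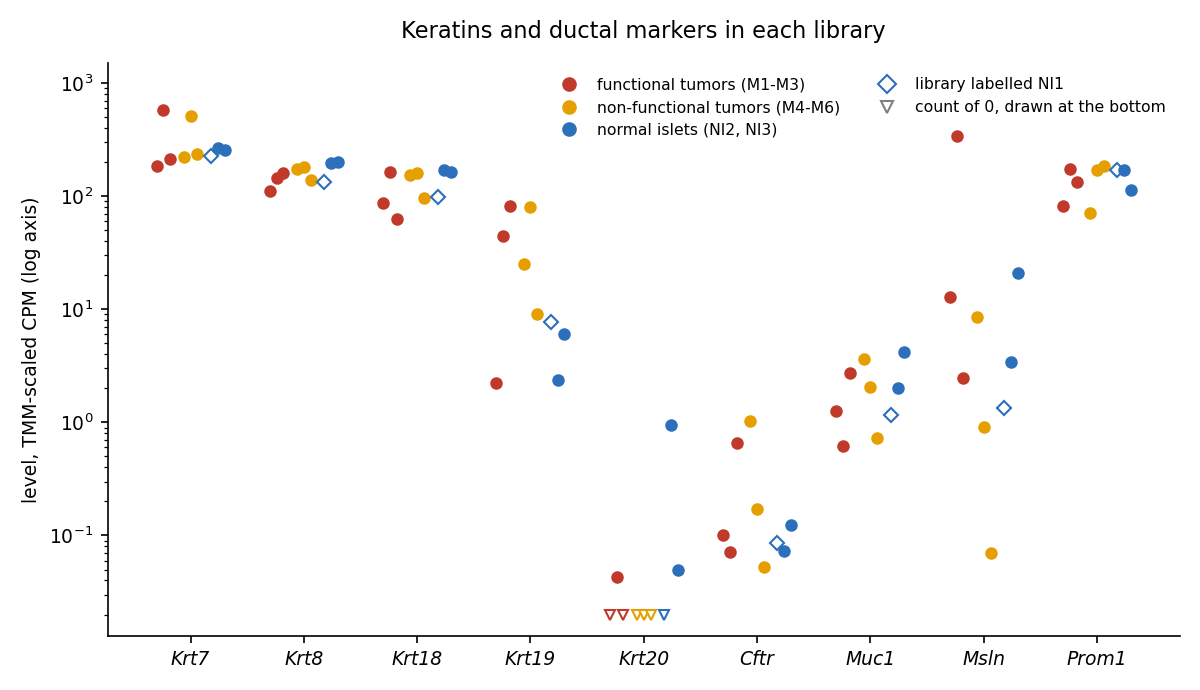
Level of each gene in each library as TMM-scaled CPM on a log axis, with red points for functional tumors, orange points for non-functional tumors, filled blue points for NI2 and NI3 and an open diamond for the library labelled NI1. Krt7, Krt8, Krt18 and Prom1 sit between 62.7 and 584 CPM in all 9 libraries, Krt19 and Msln spread widely among the tumors, and Krt20 and Cftr sit near or below 1 CPM.

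Krt8 varied least among tumors of the tested members. It was at 111, 144 and 161 CPM in M1, M2 and M3, at 174, 181 and 139 CPM in M4, M5 and M6, and at 134, 195 and 200 CPM in NI1, NI2 and NI3. All 6 tumors were below NI2 and NI3, and only M1 was below the library labelled NI1. Relative to the islets, tumor Krt8 was at a log2 fold change of -0.22 (SE, the standard error, of 0.20, edgeR adjusted p = 0.577), and without NI1 at -0.38 (SE 0.21, adjusted p = 0.285). The difference did not pass the test either way. On log2(CPM + 1) the standard deviation of Krt8 over the 6 tumors was 0.26, which was larger than that of 19.9% of the genes tested. Krt8-ps, a processed pseudogene of Krt8 on chromosome 7, took at most 0.122 CPM in any library.

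Krt18, the type I partner of Krt8, was at 86.5, 163 and 62.7 CPM in M1, M2 and M3, at 155, 160 and 96.0 CPM in M4, M5 and M6, and at 99.4, 171 and 165 CPM in NI1, NI2 and NI3. As with Krt8, every tumor was below NI2 and NI3, but M1, M3 and M6 were below NI1 as well. Of all genes tested, 16.3% had every tumor below both NI2 and NI3. The log2 fold change of Krt18 was -0.27 (SE 0.33, adjusted p = 0.676, edgeR), and -0.48 without NI1 (SE 0.36, adjusted p = 0.419). Neither keratin of the pair passed the test.

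Krt7, the type II keratin of ducts, was at 184, 584 and 212 CPM in M1, M2 and M3 and at 224, 514 and 238 CPM in M4, M5 and M6. In NI1, NI2 and NI3 it was at 226, 269 and 258 CPM. Krt7 RNA was thus present in the islets at a level with little spread, and M2 and M5 were high among the tumors while the other 4 lay below NI2 and NI3. The tumors averaged 326 ± 175 CPM (SD, n = 6), and the islets averaged 251 ± 22.1 CPM (SD, n = 3). The log2 fold change was 0.38 (SE 0.40, adjusted p = 0.625, edgeR) and 0.31 without NI1 (adjusted p = 0.727).

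Krt19, the type I keratin of ducts, was the member with the lowest p in tumors against islets, and it varied between tumors of the same label. It was at 2.22, 44.1 and 81.6 CPM in the functional tumors M1, M2 and M3 and in the non-functional M4, M5 and M6 at 25.0, 79.9 and 9.10 CPM. The islet libraries NI1, NI2 and NI3 held 7.77, 2.37 and 6.02 CPM. Thus 5 of 6 tumors were above all islet libraries, M6 by little, and M1 was below all of them. The counts behind the lowest values, 110 reads in M1 and 97 in NI2, were far over the limit of detection. The tumors averaged 40.3 ± 34.5 CPM (SD, n = 6), the islets 5.38 ± 2.76 CPM (SD, n = 3) and NI2 and NI3 alone 4.19 ± 2.58 CPM (SD, n = 2).

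The log2 fold change of Krt19 was 2.90 (SE 1.02), a 7.48-fold higher level in tumors, and edgeR gave it an unadjusted p of 0.0172 and an adjusted p of 0.182. Without NI1 it was 3.26 (SE 1.29, adjusted p = 0.147). Leaving out each library in turn gave 2.54 to 3.26, with 0 calls. DESeq2 on all 9 libraries gave 2.91 with an adjusted p of 0.00923, and the 20 alternatives gave adjusted p-values between 0.00923 and 0.595. The highest tumor, M3, held 36.8 times the Krt19 of the lowest, M1. The standard deviation over the 6 tumors, 1.85 on log2(CPM + 1), was larger than that of 99.2% of the genes tested.

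**Figure D2:**
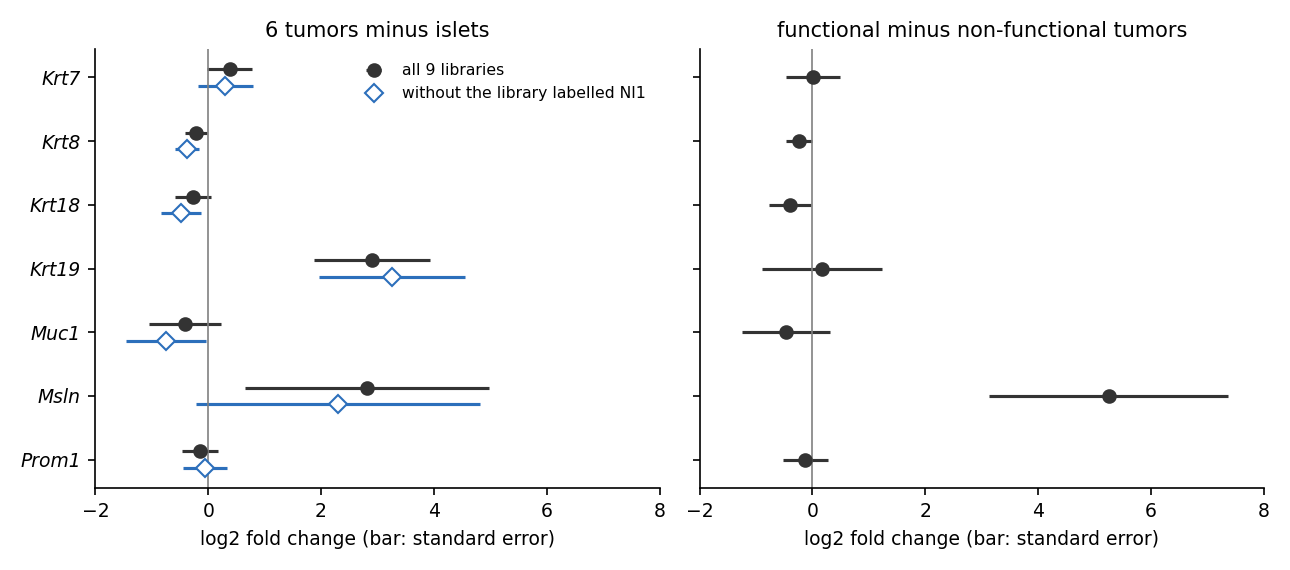
Log2 fold changes of the 7 tested members from edgeR with their standard errors, for tumors minus islets on the left, with all 9 libraries (filled) and without the library labelled NI1 (open), and for functional minus non-functional tumors on the right. Krt19 lies at 2.90 and 3.26 on the left and at 0.17 on the right, and Msln carries the widest bars.

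Krt20, a type I keratin of the gut lining and urothelium, was close to absent. The counts were 0 in M1, M3, M4, M5, M6 and NI1, 3 in M2, 2 in NI3 and 39 in NI2. Only the 39 counts in NI2, 0.952 CPM, were over the limit of 3, and in the 6 libraries at 0 that limit allows a level of up to 0.119 CPM in the shallowest. These limits cover counting error only. Where every gene with a count was tested, Krt20 in tumors against islets did not pass (unadjusted p = 0.00695, adjusted p = 0.176, edgeR).

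The keratins were then set side by side per kilobase of annotated exon, since counts grow with length. In tumors the order of mean levels was Krt18 (83.8 ± 30.5 CPM per kb, SD, n = 6), Krt8 (77.4 ± 13.1), Krt7 (46.2 ± 24.9), Krt19 (21.7 ± 18.6) and Krt20 (0.00367 ± 0.009). In islets the order was the same, at 101 ± 27.7 CPM per kb for Krt18 (SD, n = 3), 90.0 ± 18.8 for Krt8, 35.6 ± 3.13 for Krt7, 2.90 ± 1.49 for Krt19 and 0.173 ± 0.278 for Krt20. The means of Krt18 and Krt8 did not differ beyond their spread in either group. Krt7 was above Krt19 in each tumor but M3, where they were at 30.1 and 44.0 CPM per kb. The order depended on the length used. With the longest transcript of each gene, Krt7 came to 79.6 ± 42.8 CPM per kb in tumors and so to second place, by a difference within the spread.

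**Figure D3:**
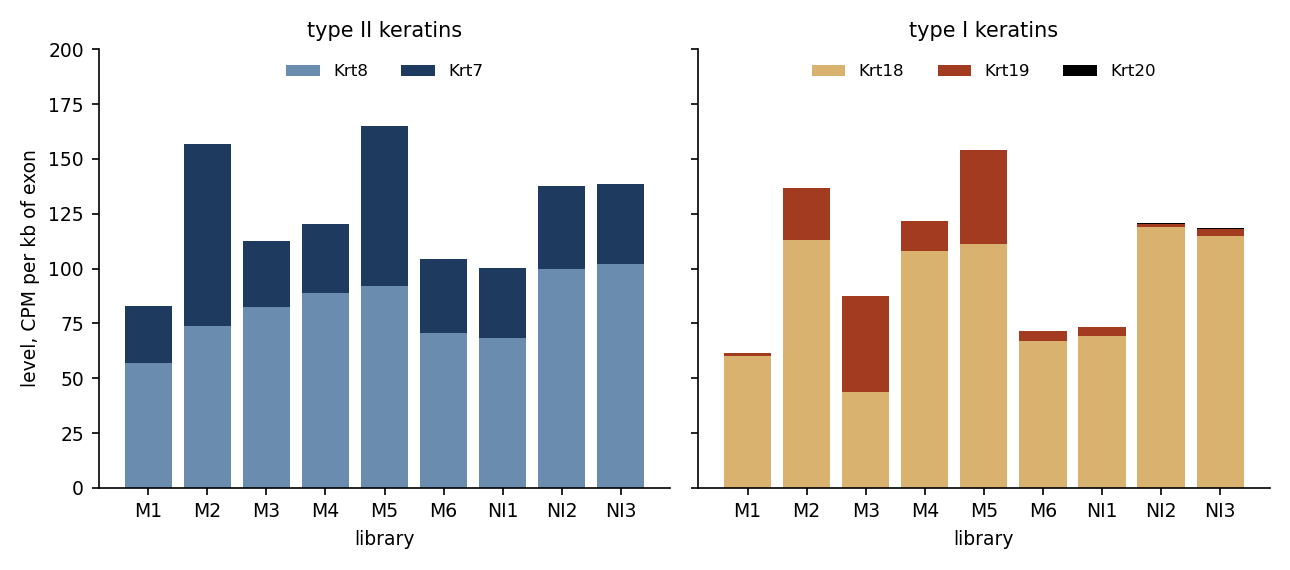
Stacked CPM per kb of exon in each library for the type II keratins Krt8 and Krt7 on the left and the type I keratins Krt18, Krt19 and Krt20 on the right. The Krt19 segment reaches 50.2% of the type I bar in M3 and stays at 5.71% or less in M1 and the islet libraries, and with this length the Krt7 segment exceeds the Krt8 segment in M2 only.

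The sum of the type II members, Krt7 and Krt8, was set against that of the type I members, Krt18, Krt19 and Krt20. Other keratins were left out of both sums. Among them was the type II keratin Krt80, at 198 CPM in M2 and 54.1 CPM in M5. The ratio of type II to type I, in CPM per kb of exon, was between 0.991 in M4 and 1.46 in M6, and the islets, at 1.37, 1.14 and 1.17, lay inside that range. Per kb of the longest transcript the ratio was 1.16 in M4 to 1.78 in M6, and 1.67, 1.37 and 1.39 in the islets. Between tumors the partner on each side differed. Krt19 made up 1.95%, 17.4% and 50.2% of the type I members in M1, M2 and M3, and 11.1%, 27.9% and 6.84% in M4, M5 and M6. In NI1, NI2 and NI3 it made up 5.71%, 1.06% and 2.75%. M3 held both the highest Krt19 and the lowest Krt18 of all libraries, and its Krt8 to Krt18 ratio, in CPM per kb, was 1.89, where the other 8 libraries lay between 0.651 and 1.06. Krt7 made up 52.9% of the sum of Krt7 and Krt8 in M2 and 44.2% in M5, per kb of exon. In the other 7 libraries it made up between 26.4% and 32.3%. Per kb of the longest transcript it was 65.9% in M2 and 57.6% in M5, so that Krt7 exceeded Krt8 in both, and between 38.1% and 45.0% in the others. M2 and M5 were thus high in both ductal keratins, and M3 in Krt19 alone.

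Cftr and Muc1, the genes of the apical duct membrane, were low in every library. Cftr counts were 5, 5 and 36 in M1, M2 and M3, 26, 7 and 3 in M4, M5 and M6, and 5, 3 and 5 in NI1, NI2 and NI3. Only M3 (0.654 CPM), M4 (1.03 CPM) and M5 (0.172 CPM) lay above the islets, which were at 0.0732 to 0.124 CPM. Where every gene with a count was tested, edgeR gave Cftr a log2 fold change of 1.82 (SE 1.14, adjusted p = 0.460). Muc1 was at 1.25, 0.623 and 2.76 CPM in M1, M2 and M3, at 3.65, 2.04 and 0.721 CPM in M4, M5 and M6 and at 1.17, 2.0 and 4.16 CPM in NI1, NI2 and NI3. Tumors and islets overlapped, with a log2 fold change of Muc1 of -0.41 (SE 0.65, adjusted p = 0.755, edgeR) and of -0.75 without NI1 (adjusted p = 0.530). M2, high in Krt7 and Krt19, held the least Muc1 of all libraries.

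Msln varied more than any other member. It was at 12.9, 338 and 2.45 CPM in M1, M2 and M3, at 8.56, 0.909 and 0.0704 CPM in M4, M5 and M6, and at 1.35, 3.42 and 21.0 CPM in NI1, NI2 and NI3. M2, the only female, stood at 26.1 times the next tumor, and the other 5 tumors overlapped the islets. The log2 fold change of Msln between tumors and islets was 2.82 (SE 2.16, adjusted p = 0.489, edgeR), and it was -0.79 without M2 and -1.30 without M2 and NI1. DESeq2 gave no p-value for Msln in this comparison. The standard deviation of Msln over the tumors, 2.97 on log2(CPM + 1), was larger than that of 99.9% of the genes tested.

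Prom1 was at a like level in tumors and islets. It was at 81.2, 175 and 135 CPM in M1, M2 and M3, at 70.7, 170 and 185 CPM in M4, M5 and M6, and at 169, 169 and 113 CPM in NI1, NI2 and NI3. The groups overlapped, with a log2 fold change of -0.14 (SE 0.33, adjusted p = 0.840, edgeR) and of -0.05 without NI1 (adjusted p = 0.947). Per kilobase of exon the tumors averaged 19.0 ± 6.92 CPM (SD, n = 6) and the islets 20.9 ± 4.52 CPM (SD, n = 3). This was within the spread of Krt19 in tumors and above every value of Krt19 in islets, which ran from 1.28 to 4.19 CPM per kb.

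The second question was whether functional and non-functional tumors differed. The groups overlapped in all 9 members. The share of all genes that overlapped was not counted, so nothing is read from this. In edgeR 0 of 7 tested members passed, as did 0% of all genes (0 of 15532), and by DESeq2 0 of 7 passed, where 0.721% of all genes did. At an unadjusted p under 0.05, which 10.3% of all genes reached, the count was 1 of 7. That gene was Msln, with a log2 fold change of 5.25 in functional minus non-functional tumors (SE 2.12, unadjusted p = 0.0348, adjusted p = 0.474, edgeR), and it was 1.28 without M2 and NI1. For Krt19 the means were 42.7 ± 39.7 CPM in functional and 38.0 ± 37.2 CPM in non-functional tumors (SD, n = 3 each), with a log2 fold change of 0.17 (SE 1.07, adjusted p = 0.970). For Krt8 they were 139 ± 25.6 and 164 ± 22.5 CPM, with a log2 fold change of -0.24 (SE 0.23, adjusted p = 0.739). Krt7 differed by 0.01 (SE 0.48), Krt18 by -0.40 (SE 0.38), Muc1 by -0.46 (SE 0.78) and Prom1 by -0.12 (SE 0.39), all on the log2 scale. For Krt7, Krt18, Krt19, Muc1 and Prom1 the difference in means was within the spread of the 3 tumors of a group. For Krt8 it was about as large as that spread.

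Other keratins were mostly silent. Of 50 further genes named as keratins, 41 stayed under 1 CPM in every library, and 5 were tested, of which 0 passed with all libraries (median log2 fold change 0.46, against 0.03 over all genes). Krt222, at 11.8 and 13.2 CPM in NI2 and NI3 and at 0.127 to 2.88 CPM in the tumors, was the only gene of these called, as lower, without NI1 (log2 fold change -3.76, adjusted p = 0.0470, edgeR), where 3% of all genes were called lower, and its adjusted p with all libraries was 0.164. Krt10, a keratin of differentiating epidermis, was present at 4.76 to 11.2 CPM throughout. Krt17, Krt86, Krt88 and Krt90 reached 1 CPM in a library but were not tested. Krt17 was at 6.66 CPM in M4 and at 0.545 CPM or less elsewhere. Krt90 was at 2.58 CPM in M2 and at 0.737 CPM or less elsewhere. Krt86 reached 1.23 CPM in M5, and Krt88 reached 1.31 CPM in M4. Krt80 and Krt87 flank Krt7, and Krt87 ends 724 bases from it on the opposite strand. The library kit named by the study, NEBNext Ultra RNA, does not mark strand, so reads at such borders cannot be told apart by strand.

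Both neighbours varied with single tumors. Krt80, a type II keratin, was at 13.8, 198 and 2.91 CPM in M1, M2 and M3, at 19.3, 54.1 and 9.78 CPM in M4, M5 and M6 and at 5.55 to 8.6 CPM in the islets. It was thus highest in M2 and next in M5, the tumors that were high in Krt7. Krt87 was at 0.826, 3.24 and 17.3 CPM in M1, M2 and M3, at 0.555, 15.6 and 2.04 CPM in M4, M5 and M6 and at 0.146 to 1.75 CPM in the islets, highest in M3 and M5 as Krt19 was. Neither passed the test in tumors against islets (log2 fold changes 2.87 for Krt80 and 3.16 for Krt87, adjusted p = 0.233 and 0.236, edgeR), nor without NI1 (3.08 and 4.88, adjusted p = 0.235 and 0.105). The genes annotated next to Krt19 and Krt20 were low, with Krt9 and Krt12 at 0 in every library, Krt15 at up to 0.0352 CPM and Krt23 at up to 0.867 CPM. Krt78, before Krt8, stayed at 0.262 CPM or less, and Eif4b, a translation initiation factor after Krt18, was at 207 to 353 CPM.

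**Figure D4:**
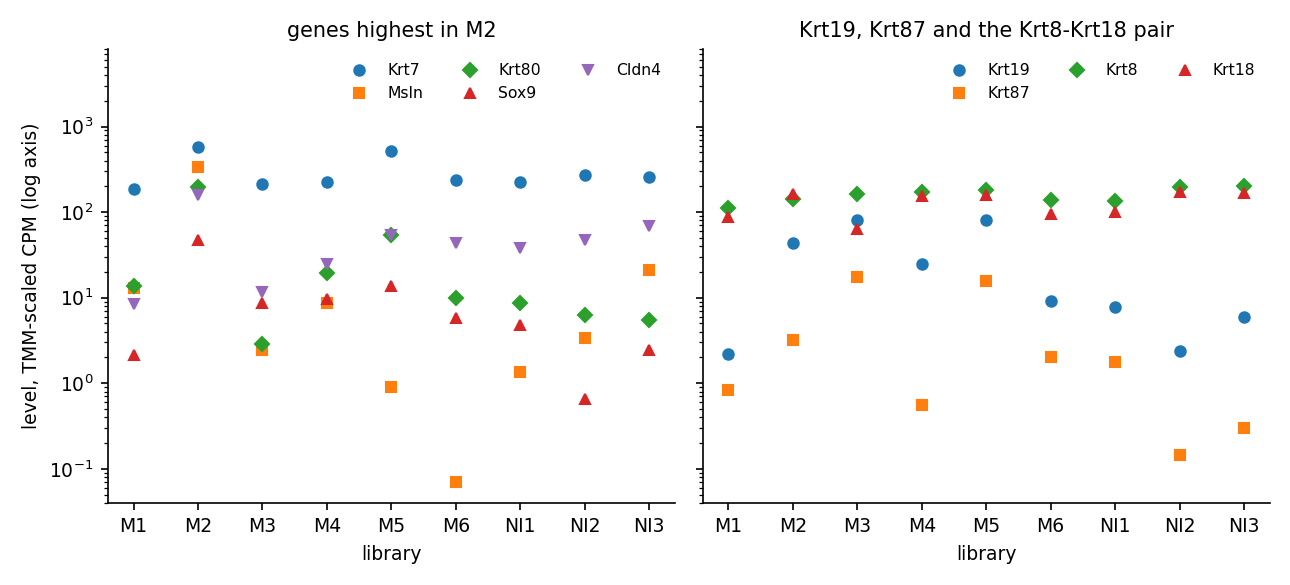
TMM-scaled CPM in each library on a log axis, for Krt7 and genes highest in M2 on the left and for Krt19, Krt87, Krt8 and Krt18 on the right. Msln, Krt80, Sox9 and Cldn4 peak in M2 at 338, 198, 47.6 and 160 CPM, while Krt19 and Krt87 are highest in M3 and M5.

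M2 was also high in Sox9 and Cldn4, chosen here after their values were seen, but was the lowest library in some other duct genes. Sox9, the transcription factor of duct and progenitor cells, was at 47.6 CPM in M2, at 2.12 to 13.7 CPM in the other tumors and at 0.659 to 4.77 CPM in the islets. Cldn4, a tight junction protein, was at 160 CPM in M2, at 8.44 to 53.9 CPM in the other tumors and at 38.0 to 69.6 CPM in the islets. Ehf, an epithelial transcription factor, was not highest in M2, at 23.6 CPM there and 49.9 CPM in M5. Of the duct genes, M2 held the least Spp1 of all libraries, 11.1 CPM against 65.6 to 216 CPM in the other tumors. It was also lowest in Tm4sf4 (74.1 CPM), Kcnn4 (2.36 CPM), Slc4a4 (0.241 CPM) and Car4 (0.0142 CPM). Among markers of mesothelium, which also carries Msln, M2 held 1.20 CPM of Upk3b, 0.977 CPM of Wt1 and 0.354 CPM of Lrrn4, and M3 held more of all 3, at 4.6, 1.35 and 1.89 CPM. M4 held 2.34 CPM of Wt1. The whole mesothelial list of 15 genes summed to 134 CPM in M2, to 22.6 to 533 CPM over the tumors and to 85.9 to 377 CPM in the islets, and Bnc1, Muc16 and Nkain4 were under 1 CPM in every library. Of its 9 tested genes 0 passed with all libraries, and Dpp4 was lower without NI1 (log2 fold change -4.09, adjusted p = 0.00380, edgeR, against 0.0600 with all libraries).

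The duct genes around the members were counted in lists. Of 21 further ductal markers, 16 were tested and 0 passed (median log2 fold change -0.26). Their summed level was 481 to 1040 CPM in tumors and 849 to 1180 CPM in islets. It was 561, 514, 481 and 667 CPM in M1, M2, M3 and M5, all below the islet libraries. In M4 and M6 it was 1040 and 893 CPM. Whether this sum goes with Krt19 was not tested. Abundant genes weigh most in such a sum. Tm4sf4 was at 277 to 540 CPM in islets and at 74.1 to 289 CPM in tumors. For Spp1 the ranges were 123 to 244 CPM and 11.1 to 216 CPM. Onecut1, Aqp5 and Cldn10 were under 1 CPM in every library. Tm4sf4 was the only marker of the list called without NI1, as lower (log2 fold change -1.74, adjusted p = 0.0341, edgeR, against 0.148 with all libraries). Sox9, Lcn2 and Tff2 had the largest fold changes and did not pass (2.47, 3.79 and -5.01, adjusted p = 0.212, 0.278 and 0.165).

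Of 15 genes for ductal ion and fluid transport, the partners of Cftr, 12 were tested and 0 passed (median log2 fold change 0.13). With all libraries the log2 fold changes farthest from 0 were those of Car4, a carbonic anhydrase, at -4.35 (adjusted p = 0.137), Slc4a4, the sodium bicarbonate cotransporter, at -1.28 and Kcnn4, a potassium channel, at -1.04. Without NI1 Car4 was called lower (-4.72, adjusted p = 0.0313, edgeR). Of 11 mucins other than Muc1, only Muc4 was tested, at 49.8 to 143 CPM in tumors and 107 to 202 CPM in islets (log2 fold change -0.48, adjusted p = 0.412). Of 18 general epithelial genes, 16 were tested and 0 passed with or without NI1 (median log2 fold change -0.01), with Ovol2, Cldn3 and Esrp2 the farthest from 0 at 1.26, 0.96 and 0.65. Of 12 progenitor genes listed with Prom1, 9 were tested and 0 passed with or without NI1 (median log2 fold change 0.11), Sox9, Cd24a and Nes having the largest changes.

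Keratin filaments are tied to the cell border and bundled by plakins and plaque proteins. Of 14 such genes, 12 were tested and 0 passed with all libraries (median log2 fold change 0.13). Without NI1, Eppk1 (epiplakin) and Evpl (envoplakin) were higher in tumors (log2 fold changes 2.43 and 1.43, adjusted p = 0.0119 and 0.0364, edgeR), where 5.34% of all genes were called higher and 3% lower. With NI1 included their adjusted p was 0.290 and 0.240. Dsp (desmoplakin), which ties keratin to desmosomes, was at 0.176 to 22.9 CPM in tumors and at 6.38, 102 and 127 CPM in NI1, NI2 and NI3. Like Krt8 and Krt18, Dsp was lower in every tumor than in NI2 and NI3 and did not pass (log2 fold change -3.17, SE 1.19, adjusted p = 0.196, and -3.72 without NI1, adjusted p = 0.0796). Pkp2 (plakophilin 2) was at -1.90 (adjusted p = 0.190). Of 13 intermediate filament genes other than keratins, 11 were tested and 0 passed (median log2 fold change 0.22), the lamins Lmnb1 and Lmnb2 were higher without NI1, and Prph, Vim and Nes had log2 fold changes of -1.59, 1.21 and 1.06.

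The make-up of the samples differed between libraries, and its part in the keratin levels was not tested. The 24 acinar genes summed to 24 to 505 CPM in tumors and to 845, 1100 and 15000 CPM in NI1, NI2 and NI3, and 0 of 20 tested passed (median log2 fold change -5.50), while 5 were lower without NI1, where 3% of all genes were. NI3, with the most acinar RNA, held 6.02 CPM of Krt19 and 0.124 CPM of Cftr. Both lay inside wide tumor ranges, of 2.22 to 81.6 CPM for Krt19 and 0.0528 to 1.03 CPM for Cftr. NI3 also held the most Muc1 (4.16 CPM) and Tff2 (21.9 CPM) of all libraries, and the most Msln of the islets (21.0 CPM). The 12 fibroblast genes summed to 39.4 to 547 CPM in tumors and 67.5 to 125 CPM in islets, with 0 passing (median 1.45) and Mfap5 higher without NI1. The 12 lymphocyte genes summed to 47.5 to 531 CPM in tumors and 247 to 1660 CPM in islets. Of 12 tested, 2 passed as lower, where 0.258% of all genes were called. Ms4a1 was among them (log2 fold change -4.64, adjusted p = 0.00993, edgeR). Without NI1, 5 of 11 tested were lower, where 3% of all genes were. M1 and M6, the tumors lowest in Krt19, had the lowest fibroblast sums of the tumors, at 132 and 39.4 CPM, and the lowest lymphocyte sums, at 47.5 and 123 CPM. The other tumors did not keep this order. M4, at 25.0 CPM of Krt19, had fibroblast and lymphocyte sums of 547 and 469 CPM. M3 and M5, the highest in Krt19, had fibroblast sums of 270 and 176 CPM and lymphocyte sums of 531 and 236 CPM. The 12 macrophage genes summed to 487 to 1380 CPM in tumors and 204 to 468 CPM in islets, with M1, the lowest tumor, close to NI1. All 12 log2 fold changes were above 0 (median 1.31, against 0.03 over all genes), as were all 12 of the fibroblast genes. Of the macrophage genes 0 passed with all libraries and 4 were higher without NI1, where 5.34% of all genes were. The 12 endothelial genes (median -0.18) had 0 calls with all libraries.

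Endocrine genes were abundant in all 9 libraries. The 14 beta cell genes summed to 20300 to 119000 CPM in tumors, 124000 CPM in NI1 and 330000 and 369000 CPM in NI2 and NI3, with 0 passing (median log2 fold change -0.64) and G6pc2 lower without NI1. Ins2, an insulin gene, was lowest in M3 and M2, at 7310 and 9540 CPM, and at 39100 to 88700 CPM in the other tumors. M3 was also the highest in Krt19, but M5, nearly as high in Krt19, held 61700 CPM of Ins2. Of 13 general endocrine genes 0 passed (median log2 fold change -0.47), and Scg5 was lower without NI1.

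The genes most like Krt8 and Krt19 over the 9 libraries were found by Pearson's r of log2(CPM + 1) among 10617 genes with a mean of at least 10 CPM. This is a description over libraries that share their scaling, with no test. For Krt8 they were Eif3f (r = 0.905), a translation initiation factor subunit, Ambp (0.900), a plasma protein precursor, and Zc3h11a (0.886), a zinc finger protein of mRNA export. For Krt19 they were Nsun5 (0.953), an rRNA methyltransferase, Gtf3a (0.951), a transcription factor for 5S rRNA genes, and Taf6l (0.950), a subunit of a histone acetyltransferase complex. Their range was narrower than that of Krt19. Nsun5 was at 9.71, 15.9 and 17.9 CPM in M1, M2 and M3, at 13.9, 20 and 11.4 CPM in M4, M5 and M6 and at 8.35 to 10.2 CPM in the islets.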

How the data were processed

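RNA of 6 mouse tumors and 3 islet samples was sequenced as single-end reads of 75 bases, 1 library a sample. Per the paper's methods and the submitters' processing notes, reads were trimmed with Trimmomatic 0.38 and quantified with Salmon 1.4.0 on mm10. The authors deposited whole-number estimated read counts per gene, unscaled between libraries although titled TPM. The step from transcripts to genes is not given in the sources used here. Symbols, positions and exon lengths came from GENCODE for GRCm38, and 253 identifiers without a symbol held 0.0121% of the counts.

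TMM scaling and a quasi-likelihood test (edgeR 4.0.16, R 4.3.3) were run on the 15532 genes that reached 1 CPM in 3 or more libraries. All 6 tumors were set against the 3 islets, and a fit of 3 groups compared functional with non-functional tumors. P-values were two-sided and adjusted by Benjamini-Hochberg over all tested genes, with a call at an adjusted p under 0.05. DESeq2 1.42.0 and limma 3.58.1 (voom, with and without library weights), other scalings and filters and leaving out libraries were alternatives, and leaving out M2 with NI1 was added after seeing the data.

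The members and gene lists were chosen with earlier results of these data known. Named genes were the members, the called genes of a list or else its 3 largest changes, the neighbours of the keratin genes, the 3 most like Krt8 and Krt19, and Cdk5r1. Genes called only without NI1, and Cldn4, Ehf, Evpl, Krt8-ps, Krt10, Krt17, Krt80, Krt86, Krt87, Krt88, Krt90, Spp1, Upk3b and Lrrn4, were named after their values were seen. A result for 1 list gene is not reported here.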

Additional observations from a re-analysis of the deposited data

Results flagged for a closer look

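M2 stood apart from the other 5 tumors in Msln and Krt20. Chance flags about 1 in 20 groups of values with a normal distribution, a rate not checked for CPM, and 9 members were looked at. Msln was at 338 CPM in M2 and at 0.0704 to 12.9 CPM in the other 5 tumors, and the gap was 0.962 of the whole range. On log2(CPM + 1) the gap was 0.554 of the range, under the limit of 0.625 that marks a sample as apart. Krt20 was at 0.0425 CPM in M2 and at 0 in the other 5, but this value stands for 3 counts, the limit of detection, against 5 libraries at 0, where the gap is the whole range by construction.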

How the results depend on the processing

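In tumors against islets, 0 members (of 7, or of 9 where every gene with a count was tested) were called under every alternative but these: DESeq2 called 1 (Krt19, log2 fold change 2.91), and an unadjusted p under 0.05 gave 1. Leaving out each library gave 0 to 0. The list genes called were 2 of 181 with all libraries (0.258% of all genes) and 25 of 178 without NI1 (8.34%). Krt7 was at -0.072 and Msln at -0.37 (log2) in limma-voom with library weights. Leaving out single libraries moved Msln between -0.79 and 4.67 and Muc1 between -0.75 and 0.21, and without M2 and NI1 Msln was at -1.30. Krt8, Krt18, Krt19 and Prom1 kept their direction under all 20 alternatives each, Krt19 between 2.17 and 3.47.

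In functional against non-functional tumors, 0 members were called under each of 19 alternatives. Fold changes near 0 turned. Krt7 was at -0.077 with upper-quartile scaling, -0.021 with RLE scaling and with DESeq2, -0.11 with limma-voom and -0.33 with its library weights, -0.18 without NI1 and M6 and -0.72 without M2 and NI1. Krt19 was at -0.22 with limma-voom, -1.05 with library weights and -0.30 without NI1 and M6, where Prom1 was at 0.11. Leaving out single libraries moved Krt7 between -0.72 and 0.47, Krt19 between -0.71 and 1.28, Muc1 between -1.19 and 0.17 and Prom1 between -0.45 and 0.13. The cause of these turns was not tested.

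Replicate numbers do not pair tumors with islets (correlations of -0.0516, 0.03 and -0.159 between same-numbered samples). With the replicate block 0 members were called, 12 genes were higher and 28 lower, and Krt19 was at 2.55. No islet shares a number with M4, M5 or M6, so the change in that fit rested on M1, M2 and M3 alone. At this depth a level under 3 counts, for Krt20 and Cftr, cannot be told from 0.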
